A study of Mus musculus with 34 samples.

Results

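The SLC22 family of organic ion transporters was examined in kidneys of 34 mice by polyadenylated RNA sequencing. The 9 genes described here (*Slc22a2*, *Slc22a4*, *Slc22a5*, *Slc22a6*, *Slc22a7*, *Slc22a8*, *Slc22a12*, *Slc22a13* and *Slc22a18*) were taken as a named list of kidney SLC22 transporters, out of 25 *Slc22a* genes and 23509 genes in the count tables. All 9 passed the filter on low counts. Mice of 2 groups carried a *Pkd2* knockout, which the labels spell Pdk2KO, on a C57BL6 background. These mice received RGLS4326 at 20 mg/kg (n = 11) or PBS (n = 11) under the skin on postnatal days 10, 11, 12 and 19. The third group, UNT, was wildtype C57BL6 and received nothing (n = 12), and kidneys of all groups were taken on postnatal day 28. RGLS4326 is a short, chemically modified oligonucleotide that binds the seed of miR-17.

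The study writes the model as a *Pkhd1*-driven Cre with floxed *Pkd2*, and *Pkhd1* is known as background as a gene of tubules and collecting ducts. In the labelled knockout the mean *Pkd2* level was 160.1 ± 32.2 CPM (counts scaled to library size, mean ± SD, n = 11) under PBS against 274.0 ± 34.4 (n = 12) in UNT, a log2 fold change of -0.78 ± 0.09 (SE). *Pdk2*, the gene the label names by its letters, was also lower (log2 fold change -1.17). PBS and UNT mice differed both in genotype and in being injected, and these cannot be told apart. No group given a control oligonucleotide was analysed here. The libraries held 17603122 to 54981992 reads in genes. The sample numbering in the table names restarts, which splits the libraries into 3 sets of 11, 11 and 12 mice, each holding mice of all 3 groups, and these are called library sets. Reads in no gene made up 9.84 to 11.3% in UNT, 5.18 to 9.0% in PBS and 4.94 to 12.0% in RGLS4326 libraries, and reads without a unique alignment 22.8 to 25.7%, 14.8 to 19.4% and 14.8 to 19.1%.

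SLC22 proteins carry charged small molecules across the plasma membrane of epithelial cells, and in the kidney most of them sit in the proximal tubule. Organic anion transporters of the basolateral side take drugs, metabolites and uremic solutes from the blood in exchange for dicarboxylates, organic cation transporters do the same for positively charged compounds along the membrane potential, and separate apical proteins pass the solute into urine. Other members of the family work in the opposite sense and recover urate, carnitine or ergothioneine from the filtrate.

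The oligonucleotide is directed at miR-17, so the mature mouse sequence is shown first, with its seed, bases 2 to 8, in capitals (RefSeq, GRCm38.p6, chr14:115043684-115043706, plus strand).
mmu-miR-17-5p: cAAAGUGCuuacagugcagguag
A match to this seed (GCACTTT, or CACTTTA) was looked for in 3′UTRs, taking the longest that GENCODE M21 lists per gene. None of the 9 transporters held a match (0 of 9), in 3′UTRs of 62 bases (*Slc22a18*) to 2088 bases (*Slc22a6*). Over all tested genes with a 3′UTR, 3011 of 14193 (21.2%) held a match.

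The 9 genes lie on chromosomes 7, 9, 11, 17 and 19 (GRCm38, GENCODE M21), all as protein-coding genes. *Slc22a8* (chr19:8591254-8611835) and *Slc22a6* (chr19:8618039-8628299) are neighbours on the plus strand, 6203 bases apart. *Slc22a5* (chr11:53864542-53891660) and *Slc22a4* (chr11:53983123-54028090) lie on the minus strand, 91462 bases apart, with *Slc22a21* between them. *Slc22a2* (chr17:12584132-12628488, plus), *Slc22a7* (chr17:46432183-46438457, minus), *Slc22a12* (chr19:6535845-6543032, minus), *Slc22a13* (chr9:119192974-119209098, minus) and *Slc22a18* (chr7:143473736-143499334, plus) complete the list. Exons of *Slc22a12* overlap *Nrxn2* on the other strand over 682 of 2263 bases (30.1%). The strand setting of the counting was not stated, so the *Slc22a12* counts are uncertain over that stretch, and the other 8 genes have no such overlap.

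The RefSeq promoter table (GRCm38.p6) held 8 of the 9 genes and not *Slc22a7*. The windows, from 250 bases before to 50 bases after the start, were searched on both strands for CAAAGTCCA, a binding motif of HNF4, a transcription factor of the proximal tubule. None of the 8 windows held it (0 of 8), and 0.475% of 32851 windows did. The RefSeq starts can differ from the GENCODE coordinates given above. For *Slc22a8* the 250 bases before the RefSeq start (chr19:8592932-8593181) lie inside the GENCODE gene, and all 250 are annotated as exon.

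All 9 transporters fell in PBS-treated *Pkd2*-KO kidneys relative to UNT kidneys, and all 9 remained lower under RGLS4326. The question of the first comparison is what the disease model does to kidney expression. The fall under PBS ranged from 3.89-fold (*Slc22a5*) to 10.4-fold (*Slc22a7*, 7.03-fold without the mouse UNT 3, when *Slc22a8* fell most at 8.80-fold), with a median log2 fold change of -2.35 over the 9 genes against 0.04 over all 15644 tested genes. All 9 were called by edgeR's quasi-likelihood test at an adjusted p under 0.05, where 39.0% of all tested genes were called lower. For 8 of 9 genes every PBS mouse lay below every UNT mouse, which held for 19.8% of all tested genes. The exception was *Slc22a7*. In bulk tissue, fewer proximal tubule cells and less RNA per cell cannot be told apart.

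**Figure D1:**
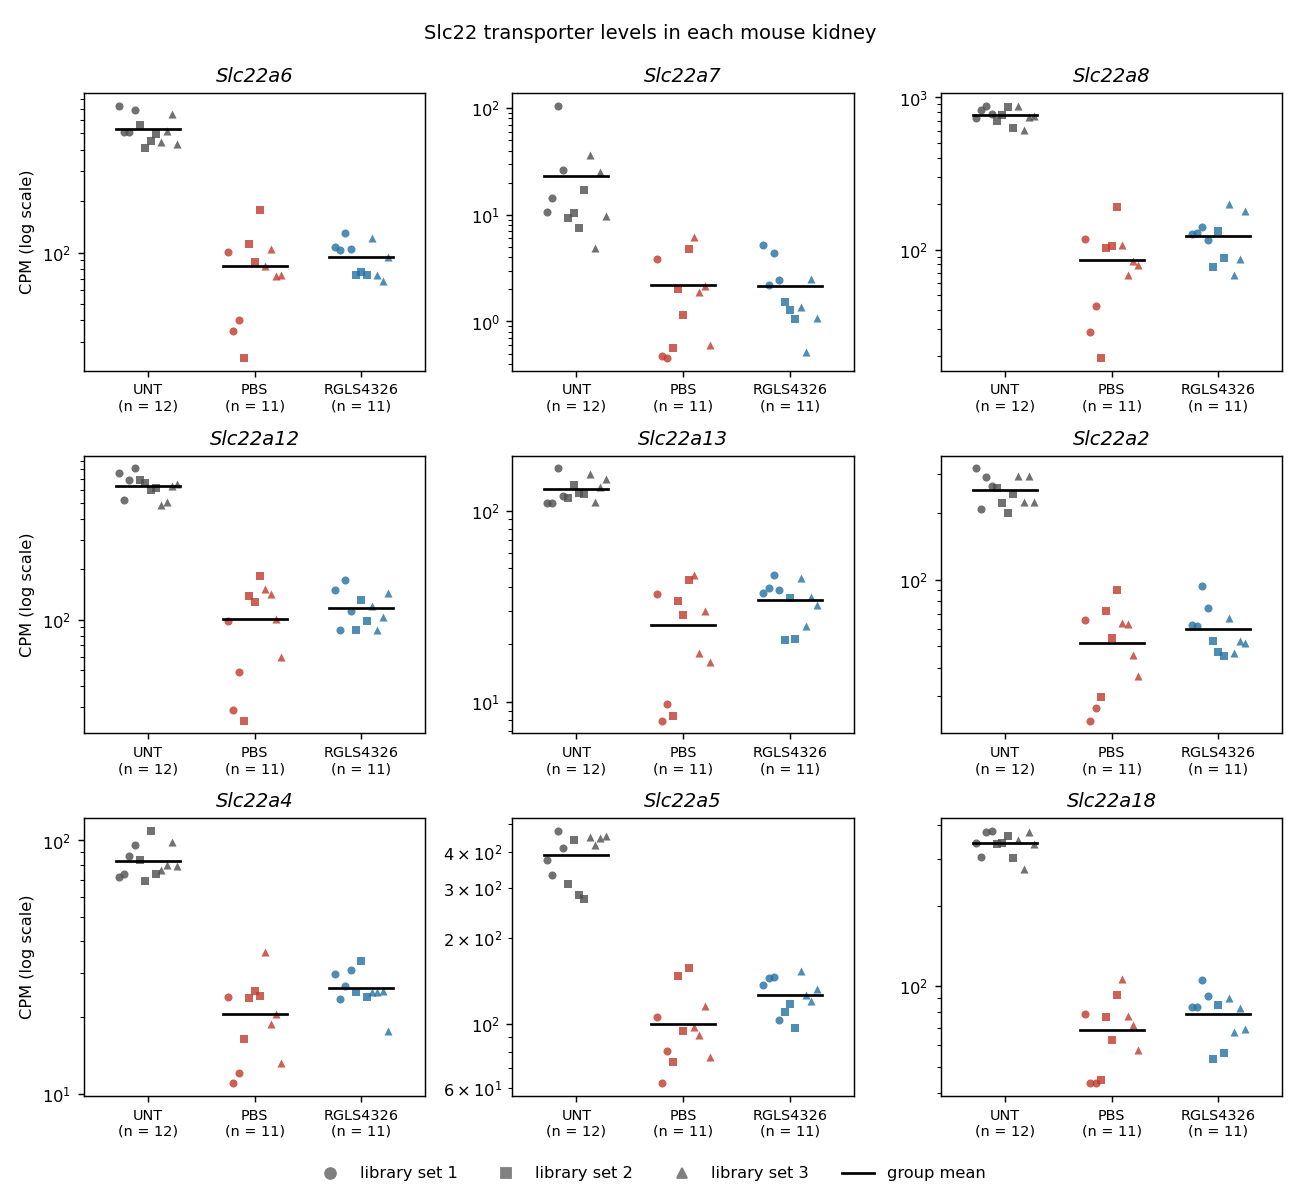
Level of each of the 9 transporters in each mouse, as CPM on a log axis, with mice grouped as UNT, PBS and RGLS4326, marker shape for the library set and a bar at the group mean. The 11 PBS mice lay below all 12 UNT mice in 8 of the 9 panels, and RGLS4326 mice overlapped PBS mice in all 9.

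*Slc22a6* encodes OAT1, the basolateral anion exchanger known for the uptake of p-aminohippurate. Its level in UNT mice was 409 to 728 CPM with a median of 510. PBS mice had 24 to 177 CPM (median 83.2) and RGLS4326 mice 68.2 to 131 CPM (median 94.4). No mouse of either knockout group reached the lowest UNT mouse. The log2 fold change was -2.68 ± 0.22 (SE) for PBS vs UNT (adjusted p = 1.11e-13) and -2.51 ± 0.22 for RGLS4326 vs UNT (adjusted p = 7.05e-13).

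*Slc22a8* encodes OAT3, the companion of OAT1 on the same membrane, with a preference for larger organic anions. UNT mice had 608 to 884 CPM with a median of 761. The range in PBS mice was 19.3 to 189 CPM (median 84.7), with 9.80 times between lowest and highest, and in RGLS4326 mice 67.8 to 199 CPM (median 126). The PBS group fell 8.93-fold, a log2 fold change of -3.16 ± 0.25 (adjusted p = 7.72e-14). In RGLS4326 mice it was 6.28-fold lower than in UNT (log2 fold change -2.65 ± 0.25, adjusted p = 5.36e-12).

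*Slc22a7* encodes OAT2, an anion transporter of liver and kidney. It was the gene with the fewest counts and, by coefficient of variation, the widest spread in each group. By the SD of log2(CPM + 1) it was not the widest in PBS mice (0.83, against 0.98 for *Slc22a12*). UNT mice had 4.90 to 106 CPM with a median of 12.4. The highest value came from a single mouse, UNT 3, with 3949 counts, and the next highest UNT mouse had 36.1 CPM. PBS mice had 0.453 to 6.17 CPM (median 1.91), from 13 to 260 counts, and RGLS4326 mice 0.512 to 5.22 CPM (median 1.51). A single PBS mouse and a single RGLS4326 mouse lay above the lowest UNT mouse, so the groups overlapped. The log2 fold change of PBS vs UNT was -3.38 ± 0.50 (adjusted p = 1.72e-07), and -2.81 ± 0.43 (adjusted p = 2.87e-07) without UNT 3. RGLS4326 vs UNT gave -3.41 ± 0.51 (adjusted p = 2.12e-07), and -2.85 ± 0.43 without UNT 3.

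*Slc22a12* encodes URAT1, the apical exchanger that recovers urate from the filtrate. UNT mice had 490 to 811 CPM (median 643), PBS mice 24.7 to 182 CPM (median 101) and RGLS4326 mice 86.1 to 173 CPM (median 112). The fall under PBS was 6.34-fold (log2 fold change -2.67 ± 0.24, adjusted p = 1.91e-12), and RGLS4326 mice stood 5.42-fold below UNT (adjusted p = 1.85e-11). *Slc22a13* encodes OAT10, an apical exchanger of urate and nicotinate. Its level was 109 to 167 CPM in UNT mice (median 123), 7.97 to 45.9 CPM in PBS mice (median 28.5) and 21.0 to 46.3 CPM in RGLS4326 mice (median 35.3). The log2 fold changes relative to UNT were -2.35 ± 0.23 for PBS (adjusted p = 1.58e-11) and -1.92 ± 0.23 for RGLS4326 (adjusted p = 1.72e-09).

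*Slc22a2* encodes OCT2, the basolateral uptake transporter of organic cations such as creatinine and metformin. UNT mice had 200 to 319 CPM (median 253), PBS mice 23.1 to 90.2 CPM (median 54.6) and RGLS4326 mice 45.4 to 94.0 CPM (median 53.2). PBS mice were 4.89-fold lower than UNT (log2 fold change -2.29 ± 0.18, adjusted p = 2.92e-14) and RGLS4326 mice 4.25-fold lower (adjusted p = 3.67e-13).

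*Slc22a5* encodes OCTN2, the sodium-coupled carnitine transporter that recovers carnitine in the tubule, and *Slc22a4* encodes OCTN1, a transporter of ergothioneine. For *Slc22a5*, UNT mice had 274 to 475 CPM (median 418), PBS mice 62.2 to 157 CPM (median 94.6) and RGLS4326 mice 96.7 to 153 CPM (median 127). This was the smallest fall of the 9, with a log2 fold change of -1.96 ± 0.13 for PBS vs UNT (adjusted p = 5.65e-16) and -1.63 ± 0.13 for RGLS4326 vs UNT (adjusted p = 8.71e-14). *Slc22a4* had 69.0 to 109 CPM in UNT mice (median 79.5), 11.0 to 36.3 CPM in PBS mice (median 20.7) and 17.6 to 33.5 CPM in RGLS4326 mice (median 25.2). Its log2 fold changes were -2.02 ± 0.14 (adjusted p = 2.66e-15) and -1.67 ± 0.14 (adjusted p = 3.92e-13) in the same order.

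*Slc22a18* lies in an imprinted cluster and encodes an orphan transporter whose substrate is not settled. UNT mice had 274 to 381 CPM (median 344), the narrowest spread of the 9 genes with a coefficient of variation of 9.78%. PBS mice had 43.3 to 106 CPM (median 71.5) and RGLS4326 mice 53.4 to 105 CPM (median 83.4). The log2 fold change of PBS vs UNT was -2.32 ± 0.13 (adjusted p = 6.72e-18), and of RGLS4326 vs UNT -2.11 ± 0.13 (adjusted p = 9.68e-17).

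The comparison of RGLS4326 with UNT called all 9 genes lower, where 36.9% of all tested genes were, with a median log2 fold change of -2.11. In 8 of 9 genes every RGLS4326 mouse lay below every UNT mouse, which held for 16.1% of tested genes, and *Slc22a7* was again the exception. These log2 fold changes share the UNT mice with the first comparison, and those for PBS were -3.38 to -1.96 beside -3.41 to -1.63 for RGLS4326.

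**Figure D2:**
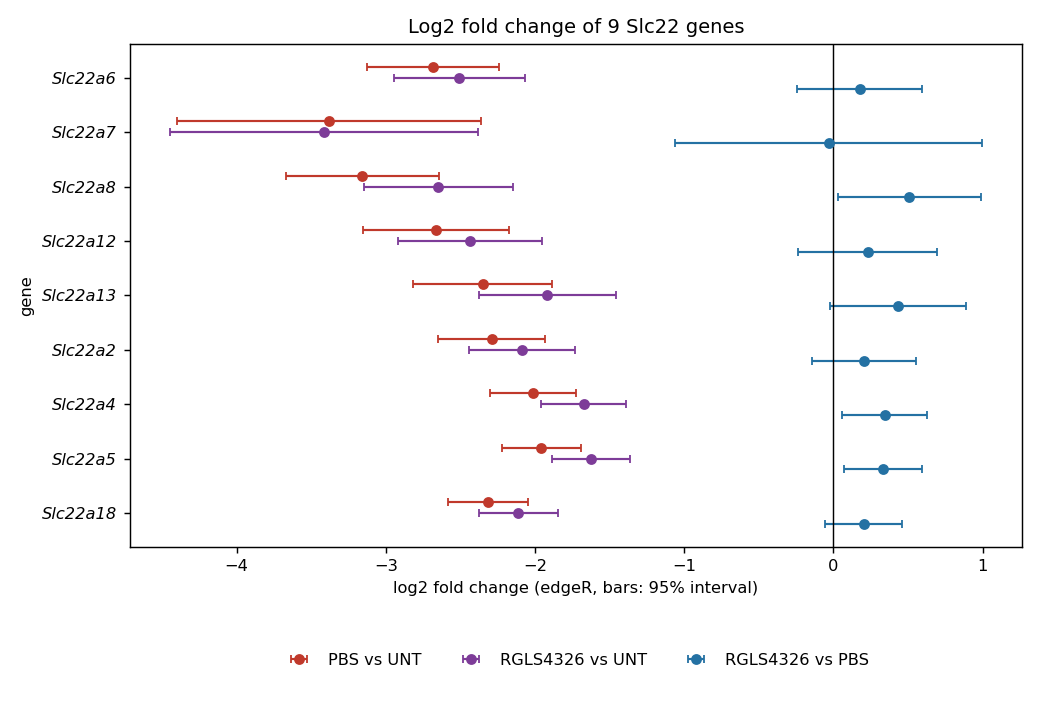
Log2 fold change of each gene (x axis, with 95% intervals) for PBS vs UNT, RGLS4326 vs UNT and RGLS4326 vs PBS. All intervals of the comparisons with UNT end at -1.36 or lower, whereas the intervals of RGLS4326 vs PBS lie around 0, and those of *Slc22a4*, *Slc22a5* and *Slc22a8* lie above it.

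Levels between genes were compared per kilobase of exon (CPM per kb). The order depends on the annotated exon lengths. In CPM without them *Slc22a8* had the highest UNT mean (765, against 637 for *Slc22a12*). The level of *Slc22a12* also carries the uncertainty of its overlap with *Nrxn2*. In UNT mice *Slc22a12* was highest at 281 ± 43.2 CPM per kb (SD, n = 12), above *Slc22a18* in 12 of 12 mice. *Slc22a18* (201 ± 19.7) and *Slc22a8* (196 ± 23.0) followed, and their order held in 8 of 12 mice. *Slc22a6* (134 ± 25.9) and *Slc22a5* (127 ± 23.6) came next, in that order in 7 of 12 mice, and *Slc22a2* stood at 102 ± 15.8. *Slc22a13* (64.5 ± 9.48), *Slc22a4* (32.6 ± 4.83) and *Slc22a7* (11.0 ± 13.1) were the lowest, and *Slc22a4* was above *Slc22a7* in 11 of 12 mice. On this scale the neighbouring pairs *Slc22a18* with *Slc22a8* and *Slc22a6* with *Slc22a5* thus did not differ beyond their spread. In CPM the UNT means were 342 and 765 for the first pair and 533 and 390 for the second.

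In PBS mice *Slc22a12* (44.4 ± 23.7 CPM per kb, n = 11) stood above *Slc22a18* (40.4 ± 12.1) in 6 of 11 mice, and *Slc22a5* (32.7 ± 9.72) was above *Slc22a8* (21.9 ± 12.2) in 11 of 11. In UNT mice the carnitine transporter was below OAT3 on the same scale, so the order of their means differed between these groups. *Slc22a8*, *Slc22a2* (20.9 ± 8.63) and *Slc22a6* (20.8 ± 10.8) could not be ranked, with the order kept in 7 and 6 of 11 mice. The means of RGLS4326 mice stood in the same order as those of PBS mice, from *Slc22a12* at 52.0 ± 13.04 to *Slc22a7* at 1.02 ± 0.695 CPM per kb. *Slc22a8* was above *Slc22a2* in 7 of 11 and *Slc22a2* above *Slc22a6* in 5 of 11 RGLS4326 mice, so these 3 could not be ranked there either.

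The spread among mice was wider in PBS mice than in UNT mice for 8 of 9 genes on the log2 scale. In RGLS4326 mice it was wider than in UNT mice for 7 of 9. The SD of log2(CPM + 1) was 0.41 to 0.98 in PBS, 0.15 to 1.13 in UNT and 0.21 to 0.61 in RGLS4326 mice, and the gene with the widest UNT spread was *Slc22a7*. A few PBS mice were low across the list. PBS 2 was among the 3 lowest PBS mice for 9 of 9 genes, PBS 3 for 8 and PBS 4 for 8, and PBS 7 was among the 3 highest for 9. PBS 2 and PBS 3 belong to library set 1 and PBS 4 and PBS 7 to library set 2. Among RGLS4326 mice, replicate 3 was among the 3 highest for 8 genes.

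Proximal tubule markers moved in the same direction, and among PBS mice PBS 2, PBS 3 and PBS 4 were lowest for both. This did not hold in UNT mice. UNT 10 had the lowest mean log2(CPM + 1) of the transporters (7.51), with markers at 9.97 beside a group mean of 9.88. All 9 markers (*Lrp2*, *Cubn*, *Slc34a1*, *Slc5a2*, *Slc5a12*, *Slc7a13*, *Aqp1*, *Miox* and *Gatm*) fell in PBS vs UNT, with log2 fold changes of -3.74 to -1.07 and a median of -2.79, beside -2.35 for the transporters. Their summed level was 11966 to 16441 CPM in UNT, 1206 to 3558 in PBS and 2452 to 4035 in RGLS4326 mice. Among PBS mice, the mean log2(CPM + 1) of the markers was 6.35 in PBS 2, 6.35 in PBS 3 and 6.11 in PBS 4, against a group mean of 7.05. Markers of tubule injury (6 of 6 higher, summed 1395 to 2771 CPM in UNT and 9674 to 16897 in PBS), of fibroblasts (5 of 5 higher, 481 to 1142 and 2908 to 6217), of immune cells (5 of 5 measured higher, 76.2 to 196 and 765 to 2650) and of collecting duct (7 of 7 higher, 703 to 1103 and 1676 to 3715) rose in PBS mice, where 43.1% of all tested genes were called higher. Most of the injury sum came from *Spp1*, with means of 1941 CPM in UNT and 12363 CPM in PBS mice. The largest collecting duct rises were those of *Krt18* (log2 fold change 3.41) and *Krt8* (2.18), and the rest ran from 0.47 to 1.55. Markers of other nephron segments also fell. Markers of the distal convoluted tubule were lower in 4 of 4 genes (median log2 fold change -2.55), of the thick limb in 4 of 5 (median -0.79, 1 higher) and of podocytes in 3 of 4 (median -1.25, 1 higher), and endothelial markers were lower in 2 and higher in 2 of 4, where 39.0% of all tested genes were called lower. The part of these shifts in cell markers in the transporter levels was not tested.

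**Figure D3:**
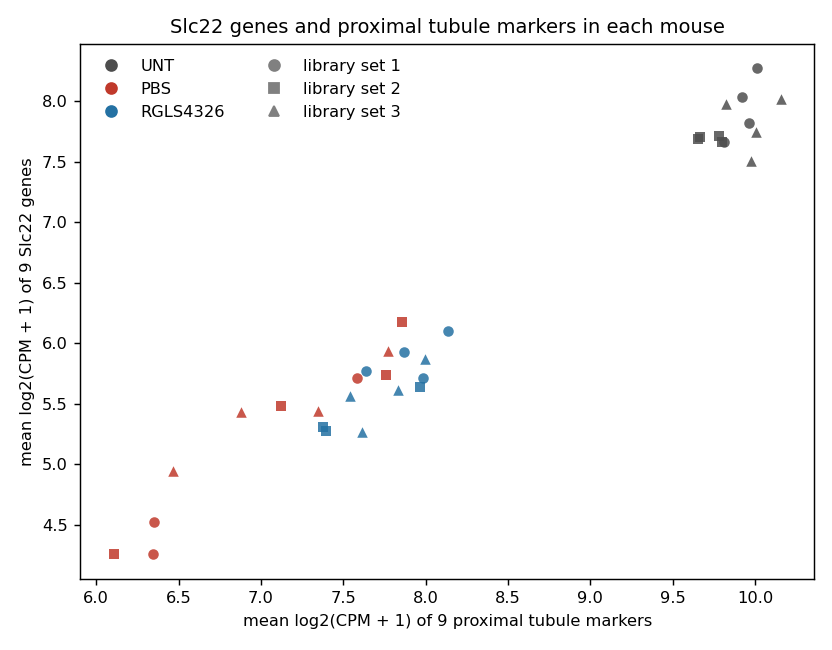
Mean log2(CPM + 1) of the 9 transporters (y axis) against that of 9 proximal tubule markers (x axis), 1 point per mouse, colored by group and shaped by library set. UNT mice sit at 7.51 to 8.27 on the y axis and 9.66 to 10.2 on the x axis, apart from both knockout groups, and 3 PBS mice lie lowest on both axes.

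The second comparison, RGLS4326 vs PBS, asks how the oligonucleotide changes expression in the knockout kidney. Only *Slc22a5* of the 9 transporters was called, with a log2 fold change of 0.33 ± 0.13 (1.26-fold higher, adjusted p = 0.0435), and 10 of 11 RGLS4326 mice lay above the PBS mean. Across all tested genes 15.3% were called higher, so 1 of 9 is near that background. The median log2 fold change was 0.23 over the 9 genes and 0.00 over all tested genes. Estimates were above 0 for 8 of 9 genes and for 7863 of all 15644 tested genes. The 9 genes varied together among PBS mice, so their signs are not separate observations. At an unadjusted p under 0.05, 3 of 9 genes were higher, as were 22.0% of all tested genes. In no gene did every RGLS4326 mouse exceed every PBS mouse (0 of 9), which held for 0.0447% of tested genes.

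Estimates for the other genes did not pass the threshold. *Slc22a8* had a log2 fold change of 0.51 with a 95% interval of 0.03 to 0.99 (adjusted p = 0.0881), and 9 of 11 RGLS4326 mice were above the PBS mean. *Slc22a4* had 0.34 (0.06 to 0.63, adjusted p = 0.0567), with 10 of 11 mice above. *Slc22a13* had 0.43 (-0.02 to 0.89, adjusted p = 0.126). The intervals of *Slc22a12* (-0.24 to 0.69), *Slc22a6* (-0.24 to 0.60), *Slc22a2* (-0.15 to 0.55) and *Slc22a18* (-0.06 to 0.46) all contained 0, as did that of *Slc22a7* (-1.06 to 0.99), which was the least certain. The intervals of *Slc22a7* and *Slc22a8* thus reached 0.99 on the log2 scale, whereas that of *Slc22a18* ended at 0.46.

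The *Slc22a5* call was sensitive to single mice. It was lost when any of 14 of the 22 knockout mice was left out (RGLS4326 replicates 1, 2, 3, 6, 8, 9 and 11 and PBS replicates 2, 3, 4, 6, 8, 9 and 11), with adjusted p of 0.0527 to 0.0837 and log2 fold changes of 0.28 to 0.34. *Slc22a4* passed instead or in addition without PBS 5, 6, 7 or 8 or without RGLS4326 11 (adjusted p = 0.00854 to 0.0444), *Slc22a8* passed without PBS 7 (log2 fold change 0.69, adjusted p = 0.0157), and *Slc22a13* without PBS 8 (0.56, adjusted p = 0.0485). With the replicate number as a block, *Slc22a5* was not called (0.35, adjusted p = 0.0686) and *Slc22a4* was (0.39, adjusted p = 0.0429).

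Estimates of the treatment difference varied between the 3 library sets, and no difference between sets passed the test. In library set 1 all 9 estimates were above 0, from 0.70 (*Slc22a5*) to 1.24 (*Slc22a7*). In library set 2 only *Slc22a4* (0.31) was above 0, and the rest ran from -0.75 (*Slc22a7*) to -0.06 (*Slc22a8*). In that set reads in no gene made up 11.3 to 12.0% in the 3 RGLS4326 libraries and 5.49 to 9.0% in the 4 PBS libraries, with no overlap, and 3 of 3 RGLS4326 and 3 of 4 PBS mice were positive for the Y-linked gene *Ddx3y*. The part of this in the estimates of set 2 was not tested. The shares overlapped in set 1 (4.94 to 8.38% and 5.18 to 7.24%) and in set 3 (6.14 to 11.7% and 5.67 to 6.65%). In library set 3 the estimates ran from -0.95 (*Slc22a7*) to 0.65 (*Slc22a8*), with *Slc22a5* at 0.48. None of the 9 transporters was called within a set (edgeR, 0 of 9 in each), where 54 of 15737 tested genes (0.343%) were called in set 1, 4065 of 15944 (25.5%) in set 2 and 0 of 15676 (0.0%) in set 3. An interaction of library set with treatment had an unadjusted p under 0.05 for 5 of 9 transporters, against 7.2% of all tested genes, and no adjusted p under 0.653, so the sets were not shown to differ. PBS vs UNT gave log2 fold changes from -4.70 to -2.31 in set 1, -2.86 to -1.50 in set 2 and -3.14 to -1.91 in set 3, with all 9 genes called in each, where 35.5%, 35.5% and 30.9% of tested genes were called lower.

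**Figure D4:**
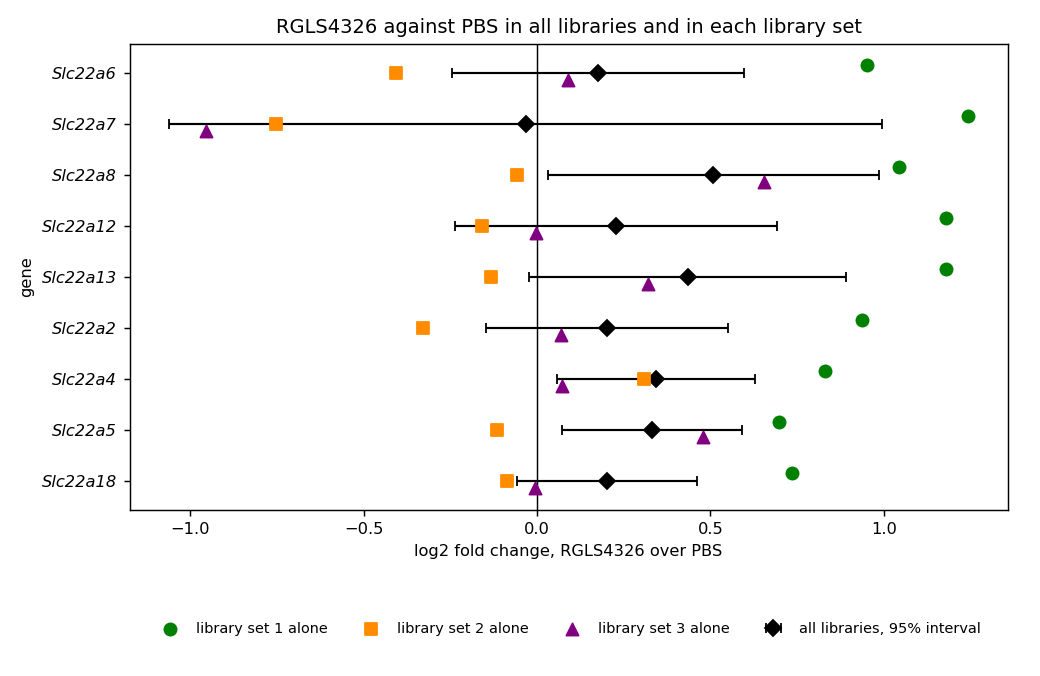
Log2 fold change of RGLS4326 over PBS (x axis) for each gene, from all libraries (diamond, with its 95% interval) and from each library set alone. All 9 points of library set 1 lie above 0, and 8 of 9 points of library set 2 lie below it.

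Proximal tubule markers were called higher under RGLS4326 for 7 of 9 genes, with a median log2 fold change of 0.64 beside 0.23 for the transporters. *Slc5a12* (0.90), *Gatm* (0.87), *Miox* (0.76), *Lrp2* (0.64), *Cubn* (0.64), *Slc34a1* (0.64) and *Slc5a2* (0.61) passed, while *Slc7a13* (0.27, adjusted p = 0.565) and *Aqp1* (0.10, adjusted p = 0.541) did not. Other cell markers moved as well. Thick limb (3 of 5), endothelial (3 of 4), podocyte (3 of 4) and distal convoluted tubule markers (2 of 4) were called higher, where 15.3% of all tested genes were. Collecting duct (5 of 7, median log2 fold change -0.59), immune (3 of 5), injury (1 of 6) and thick limb markers (1 of 5) were called lower, against 18.5% of all tested genes, and none of 5 fibroblast markers was called. The difference between these lists and the transporters, and the part of the markers in the transporter estimates, were not tested.

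Mice fell into 2 classes by the Y-linked gene *Ddx3y*, 6 of 12 UNT, 6 of 11 PBS and 5 of 11 RGLS4326 mice being positive. With this class as a term in the fit, none of the 9 transporters was called by edgeR (0 of 9, 1 of 9 at an unadjusted p under 0.05), where 35 genes or 0.224% of all tested genes were called. The largest estimates were for *Slc22a7*, with -0.75 ± 0.38 in Y-positive mice (adjusted p = 0.509), *Slc22a13* (-0.40 ± 0.17, unadjusted p = 0.024, adjusted p = 0.457) and *Slc22a8* (-0.36 ± 0.18, adjusted p = 0.515). UNT 3, which held the highest *Slc22a7* value, was Y-negative, and the medians of *Slc22a7* in UNT mice were 12.3 CPM in Y-negative and 13.8 CPM in Y-positive mice.

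The neighbouring genes *Slc22a6* and *Slc22a8* changed by unequal amounts. The log2 ratio of OAT1 to OAT3 within a mouse, from CPM + 1, was -0.97 to -0.02 in UNT mice (median -0.52) and below 0 in all 12. PBS mice had -0.35 to 0.64 (median -0.09), and RGLS4326 mice -0.91 to 0.11 (median -0.27). The mean ratio was 0.54 ± 0.13 (SE) higher in PBS than in UNT mice, with all 11 PBS mice above the UNT mean (two-sided permutation test, p = 0.00056, 0.00336 adjusted over the 6 ratio tests). It was 0.34 ± 0.13 lower in RGLS4326 than in PBS mice, which did not pass after adjustment (permutation p = 0.019, adjusted 0.057, with 1 of 11 RGLS4326 mice above the PBS mean). Within library sets the PBS vs UNT difference was 0.42, 0.65 and 0.54, and the RGLS4326 vs PBS difference -0.18, -0.38 and -0.45. RGLS4326 and UNT mice differed by 0.20 ± 0.14 (permutation p = 0.167, adjusted 0.334). These tests did not use the Y-linked class.

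The OAT1 to OAT3 ratio separated by that class in UNT mice, which was noticed after the values were seen. The 6 Y-negative UNT mice had -0.97 to -0.70 (mean -0.85, SD 0.11) and the 6 Y-positive UNT mice -0.34 to -0.02 (mean -0.22, SD 0.12), with no overlap. PBS mice also separated, with -0.35 to -0.10 in 5 Y-negative and -0.09 to 0.64 in 6 Y-positive mice, whereas the classes overlapped in RGLS4326 mice (-0.91 to -0.13 and -0.77 to 0.11). All Y-negative PBS mice lay above all Y-negative UNT mice, but within the Y-positive class the groups overlapped. Within the classes the mean ratio of PBS mice was higher by 0.62 (Y-negative) and 0.41 (Y-positive) than that of UNT mice. With group labels permuted within the classes, an alternative added after seeing the data, the mean of these differences was 0.52 (permutation p = 1e-05, the smallest these 100000 resamples can give, adjusted 6e-05 over 6 tests). RGLS4326 mice were lower than PBS mice by 0.21 and 0.41, a mean of -0.31 (permutation p = 0.0125, adjusted 0.0374). This adjustment covers these 6 tests only, and the planned permutation test without the classes did not pass (adjusted 0.057). The classes were brought in after this same ratio was seen to separate by them, so the later test adds no independent support.

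The mean ratio of *Slc22a4* to *Slc22a5* did not move by more than its spread. UNT mice had a mean of -2.20 on the log2 scale (SD 0.37, n = 12), PBS mice -2.26 (SD 0.38, n = 11) and RGLS4326 mice -2.24 (SD 0.35, n = 11). The differences were -0.05 ± 0.16 (SE) for PBS vs UNT, 0.02 ± 0.15 for RGLS4326 vs PBS and -0.03 ± 0.15 for RGLS4326 vs UNT, with adjusted permutation p of 0.888 in each. Within the Y-linked classes the differences went in opposite directions, with 0.23 in Y-negative and -0.30 in Y-positive mice for PBS vs UNT, -0.29 and 0.32 for RGLS4326 vs PBS and -0.06 and 0.02 for RGLS4326 vs UNT. Whether the classes differed was not tested.

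**Figure D5:**
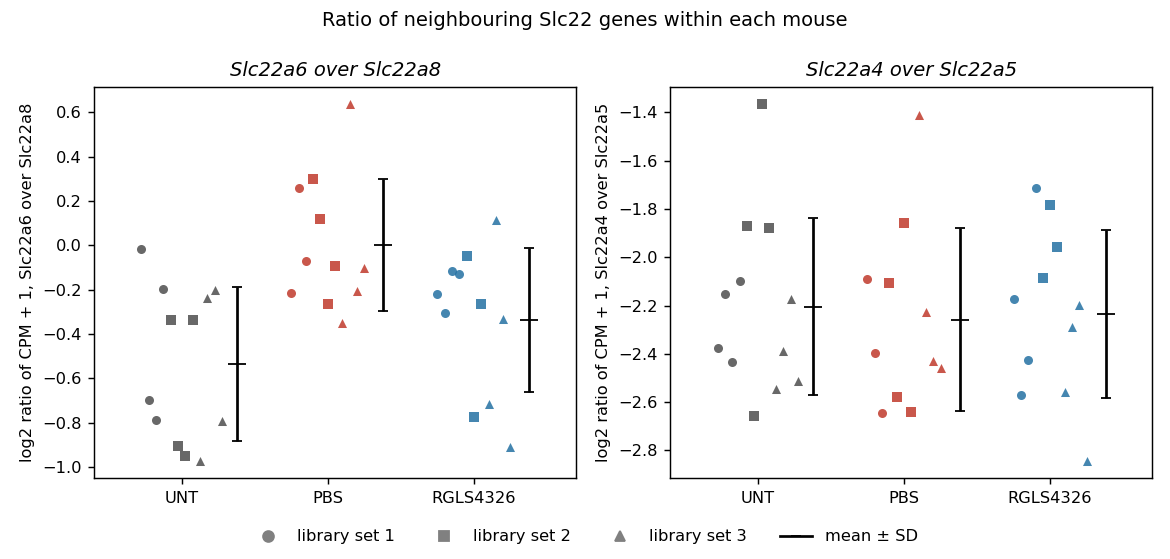
Log2 ratio of *Slc22a6* to *Slc22a8* (left) and of *Slc22a4* to *Slc22a5* (right) in each mouse, from CPM + 1, with the group mean ± SD beside the points and marker shape for the library set. The left ratio lies below 0 in all 12 UNT mice and around 0 in PBS mice, and the right ratio lies at about the same height in the 3 groups.

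The rest of the family was mostly lower too. Of 16 other *Slc22a* genes, 14 passed the filter, and 12 of them were called lower (39.0% of all tested genes were) and 1 higher in PBS vs UNT. Their median log2 fold change was -2.03, and 6 of the 14 fell by more than any of the 9 transporters, down to -4.89 for *Slc22a27*, which is named after its value was seen. *Slc22a22*, a prostaglandin-specific anion transporter, was among them at -4.20 ± 0.42. *Slc22a23*, an orphan member, fell less, with a mean of 128 ± 17.9 CPM in UNT and 70.7 ± 8.43 CPM in PBS mice (log2 fold change -0.86 ± 0.07). The gene called higher was *Slc22a15* (log2 fold change 0.96), named here after its value was seen. Under RGLS4326, 3 of the 14 were called higher, where 15.3% of all tested genes were, and none lower. *Slc22a22* had the largest difference of these, with 10.6 ± 4.24 CPM against 4.46 ± 4.44 CPM under PBS (log2 fold change 1.24 ± 0.39, adjusted p = 0.0176). *Slc22a23* rose by 0.28 ± 0.07 (adjusted p = 0.00546), in 11 of 11 mice above the PBS mean. The other was *Slc22a21*, the gene between *Slc22a4* and *Slc22a5* (0.36, adjusted p = 0.037), named after its value was seen.

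Transport by these proteins needs partners on both membranes. Of 9 measured apical efflux and urate genes, 8 were called lower and 1 higher in PBS vs UNT, and 4 were called higher in RGLS4326 vs PBS, against 39.0%, 43.1% and 15.3% of all tested genes. *Slc47a1*, which encodes the apical cation extruder MATE1, went from 546 ± 63.8 CPM in UNT to 105 ± 28.9 CPM in PBS and 131 ± 16.2 CPM in RGLS4326 mice (log2 fold change for treatment 0.32 ± 0.11, adjusted p = 0.028). The ATP-driven efflux pumps *Abcg2* (0.40 ± 0.10, adjusted p = 0.00636) and *Abcc2* (0.51 ± 0.14, adjusted p = 0.00806) also rose under RGLS4326, and each of these 3 genes was above the PBS mean in 11 of 11 mice. The efflux gene higher in PBS mice was *Abcc4* (0.80), named after its value was seen.

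All 6 measured uptake partners, which include the transporters that load the cell with dicarboxylates, were called lower in PBS vs UNT, and 4 were called higher under RGLS4326, against 39.0% and 15.3% of all tested genes. *Slc13a3*, which encodes the basolateral dicarboxylate transporter, had 877 ± 94.0 CPM in UNT, 122 ± 63.5 in PBS and 171 ± 49.1 in RGLS4326 mice (log2 fold change -2.85 ± 0.23 for PBS vs UNT and 0.49 ± 0.22 for RGLS4326 vs PBS, adjusted p = 0.0734 for the latter). Its apical relative *Slc13a2* had log2 fold changes of -2.28 ± 0.17 and 0.37 ± 0.16 (adjusted p = 0.0732). *Slc5a12*, a lactate transporter, and *Slco1a6*, an organic anion transporter of another family, rose by 0.90 ± 0.21 and 0.80 ± 0.26 under RGLS4326. *Slc5a12* is also counted among the proximal tubule markers above, so the lists share this gene. Of 3 scaffold genes that hold transporters at the apical membrane, all were called lower in PBS mice, as were 39.0% of all tested genes. *Pdzk1* was called higher under RGLS4326 (0.43 ± 0.16, adjusted p = 0.0337), and *Slc9a3r1* had -0.11 ± 0.08 (adjusted p = 0.289).

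Of 5 transcription factors reported here, known as regulators of tubule or liver transport genes, 3 were called lower and 1 higher in PBS vs UNT, against 39.0% and 43.1% of all tested genes, and 1 was called higher under RGLS4326, against 15.3%. *Nfe2l2*, the factor of the oxidative stress response, rose by 0.69 ± 0.06 in PBS mice, and its treatment estimate was -0.15 ± 0.06 (adjusted p = 0.0501). *Ppara*, which drives fatty acid oxidation genes, fell by 1.62 on the log2 scale in PBS mice and rose by 0.61 ± 0.16 under RGLS4326 (adjusted p = 0.00806).

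The transporters varied together most closely among PBS mice. Over the 36 pairs of the 9 genes, the correlation of log2(CPM + 1) ranged from 0.64 to 0.95 in the 11 PBS mice, from -0.21 to 0.96 in the 11 RGLS4326 mice and from -0.46 to 0.68 in the 12 UNT mice. These values are given as a description, with no p, since all genes of a mouse share a library and its tissue composition. With group means removed over 34 mice, *Slc22a13* was most like *Mep1a* (r = 0.96), *Rdh16* (0.95) and *Mep1b* (0.95), of which the *Mep1* genes encode the subunits of meprin, a brush border protease. Among the genes most like *Slc22a18* were *Fah* (0.92) and *Csad* (0.92), and among those most like *Slc22a2* were *Msra* (0.92) and *Ggt1* (0.90). *Slc22a8* was most like *BC089597* (0.93), *Slc13a3* (0.93) and *Acaa1b* (0.92), and *Slc22a6* like *Slc51a* (0.92), *Haao* (0.89) and *Fbp1* (0.89). The genes most like *Slc22a5* were *Cyp4a31* (0.93), *Ehhadh* (0.91) and *Adtrp* (0.89), of which *Ehhadh* encodes a peroxisomal enzyme of fatty acid oxidation. *Acox2* (0.88) and *AI317395* (0.87) were among the genes most like *Slc22a4*, and *Slc22a12* was most like *Haao* (0.88), *Mep1b* (0.87) and *Slc22a6* (0.87). The likeness was weakest for *Slc22a7*, with *Gm853* (0.76), *Acadm* (0.74) and *Slc9a8* (0.74).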

How the data were processed

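Kidney RNA of 34 mice was analysed, 1 table per mouse. The deposited values are raw read counts per gene symbol, with no normalization and no pooling. The authors prepared libraries with a stranded mRNA kit, sequenced paired ends on a NextSeq instrument, trimmed with TrimGalore, aligned with STAR to GRCm38/mm10 and counted unique reads with HTSeq 0.6.1, the version being from the submitters' processing notes. The annotation and the strand setting of the counting are not given in the sources used here. Reads in genes numbered 17603122 to 54981992 per library, no libraries were identical (0 identical pairs), and the lowest count of any of the 9 genes was 13 (*Slc22a7*), so spread between mice sets the precision elsewhere.

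Counts of all 34 libraries were fitted together in edgeR 4.0.16 (R 4.3.3) with TMM scaling, filterByExpr (15644 genes left) and the quasi-likelihood test, with 3 groups and no covariate. P-values are two-sided and adjusted by Benjamini-Hochberg over all tested genes, and genes were called under 0.05. The scaling alternative by library size only moved the median log2 fold change of all genes by 0.30 in both comparisons with UNT. Ratios were tested with permutation tests of 100000 resamples (scipy 1.17.1). DESeq2 1.42.0 was an alternative, and the procedure was tested on simulated data. The labels list 34 separate samples, taken here as separate mice, which the labels do not state, so p-values measure the spread between these samples. The check of replicate numbers found correlations of same-numbered mice over 0.1 in 2 to 5 of 11 pairs, so the numbers do not pair the mice.

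The 9 genes and all gene lists were chosen with earlier results of these data known. Named genes were the 9 transporters and, per list of relatives, partners and factors, those with the smallest p (2 in PBS vs UNT and 2 in RGLS4326 vs PBS), and the 3 genes with the highest correlation to each transporter. Exceptions are marked, and some items that this rule named are not reported here. Promoters and the miRNA came from RefSeq tables, 3′UTRs and exon lengths from GENCODE M21.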

Additional observations from a re-analysis of the deposited data

How the results depend on the processing

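All 9 transporters were called lower in PBS vs UNT and in RGLS4326 vs UNT under each of 13 alternatives and with each of 34 mice left out (9 to 9 called). The count of transporters called higher in RGLS4326 vs PBS (1) was 0 with a covariate for reads outside genes, with only the 2 groups compared and in each library set alone, 2 with a covariate for reads that aligned to several places, and 0 to 3 with single mice left out. *Slc22a5* was not called with reads outside genes as a covariate, with only 2 groups or with library set as a covariate. Its log2 fold changes there were 0.31, 0.34 and 0.32 (edgeR, adjusted p of 0.224, 0.0584 and 0.0513). The first of these settings cut the calls over all tested genes to 89, from 2388 higher and 2892 lower. *Slc22a4* was called with library set as a covariate (adjusted p = 0.0467). DESeq2, upper-quartile scaling, library size only, no filter and the Y-linked class as a covariate each called *Slc22a5* alone. The replicate block called 9, 1 (*Slc22a4*) and 9 genes in the 3 comparisons, and in no pair of groups did more than 2 of 11 mice correlate best with their own number.

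In RGLS4326 vs PBS the sign turned in library set 2 alone for *Slc22a12* (-0.16), *Slc22a13* (-0.13), *Slc22a18* (-0.0862), *Slc22a2* (-0.33), *Slc22a5* (-0.12), *Slc22a6* (-0.41) and *Slc22a8* (-0.058), in set 3 alone for *Slc22a12* (-0.0017) and *Slc22a18* (-0.0071), and for *Slc22a7* in set 1 alone (1.24), with reads outside genes as a covariate (0.17) and in 9 of 34 fits with a mouse left out (-0.25 to 0.27). The cause was not tested.

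For PBS vs UNT the *Slc22a6* to *Slc22a8* log2 ratio had no unadjusted p under 0.05 in sets 1 (0.42) and 3 (0.54). For RGLS4326 vs PBS it had none in sets 1 (-0.18), 2 (-0.38) and 3 (-0.45). Set 1 in both comparisons and set 2 for RGLS4326 vs PBS held 3 mice against 4. There the exact permutation test cannot give a p under 0.05, so it decides nothing. In set 3, with 4 against 4, it can, and the permutation p was 0.171 and 0.229. With a mouse left out the differences ranged from 0.47 to 0.58 and from -0.38 to -0.27 (0.15 to 0.26 for RGLS4326 vs UNT). The *Slc22a4* to *Slc22a5* ratio, never past 0.05, turned sign in set 3 for PBS vs UNT (0.27) and RGLS4326 vs PBS (-0.34) and in sets 1 (0.045) and 2 (0.0004) for RGLS4326 vs UNT, and with mice left out ranged from -0.1384 to 0.0226, -0.0302 to 0.107 and -0.0837 to 0.0447. Comparing the ratios within Y-linked classes, added after seeing the data, left the sign of the mean over both classes and the side of an unadjusted p of 0.05 as they were for all 6 ratio tests, while the *Slc22a4* to *Slc22a5* differences had opposite signs in the 2 classes in all 3 comparisons. No transporter was called for the Y-linked term under 3 alternatives (0 of 9).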
